A study of Anopheles gambiae with 15 samples.

Results

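Neighbouring sections of the larval gut of the malaria mosquito Anopheles gambiae, the gastric caeca and the anterior midgut, were compared by their messenger RNA levels. The comparison used every array labelled as one of these sections, 3 of gastric caeca and 3 of anterior midgut, out of 15 arrays in all. All material came from 4th instar larvae of the G3 strain, reared at 28 °C under 12 h of light and 12 h of darkness on baker's yeast and ground fish food. Guts were dissected in 70% ethanol, and each array of a section holds the pooled material of 1000 guts. The other 9 arrays were 3 each of posterior midgut, hindgut with Malpighian tubules, and whole larvae (pools of 200). They entered the estimate of the spread and the quantile normalization, and their levels served for orientation, bins and patterns. The labels name no transgene and no treatment for any group. The labels call the 3 arrays of a section biological repeats but do not say that the larvae were reared separately, so p-values measure the spread between these pools.

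The gastric caeca are blind pouches that open into the front end of the larval midgut, and the anterior midgut is the stretch of tube directly behind them. Caeca of mosquito larvae secrete digestive enzymes, absorb nutrients and move ions, while the anterior midgut keeps a strongly alkaline lumen by means of proton pumps and ion exchangers. In a dissected pool of tissue, fewer cells of a type and less RNA per cell cannot be told apart. No source used here gives genes for the probe sets, so tissue markers could not be read, the section labels were not checked against them, and probe sets appear under their IDs.

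Far more probe sets were higher in caeca than were lower. Of 16884 mosquito probe sets, 675 were at least 2-fold higher in caeca at an adjusted p under 0.05 in limma (4.00% of all tested), and 106 were lower (0.628%). Higher probe sets thus made up 86.4% of the 781 calls (4.63% of all tested), with an exact 95% binomial interval of 83.8 to 88.8%. That interval covers counting error only and treats probe sets of the same arrays as independent. Higher probe sets differed by a median of 4.38-fold and lower ones by 3.25-fold. Differences of 8-fold or more were measured in 189 of the higher and in 10 of the lower calls, and those of 32-fold or more in 36 and in none. A further 399 probe sets with a higher and 64 with a lower mean passed 2-fold without reaching the adjusted p. Without the demand for adjustment or fold, 1958 probe sets were higher and 2325 lower at an unadjusted p under 0.05, so the excess of higher probe sets belonged to the large differences. Quantile normalization of the deposited values moved the split to 575 higher and 274 lower, or 67.7% higher.

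**Figure D1:**
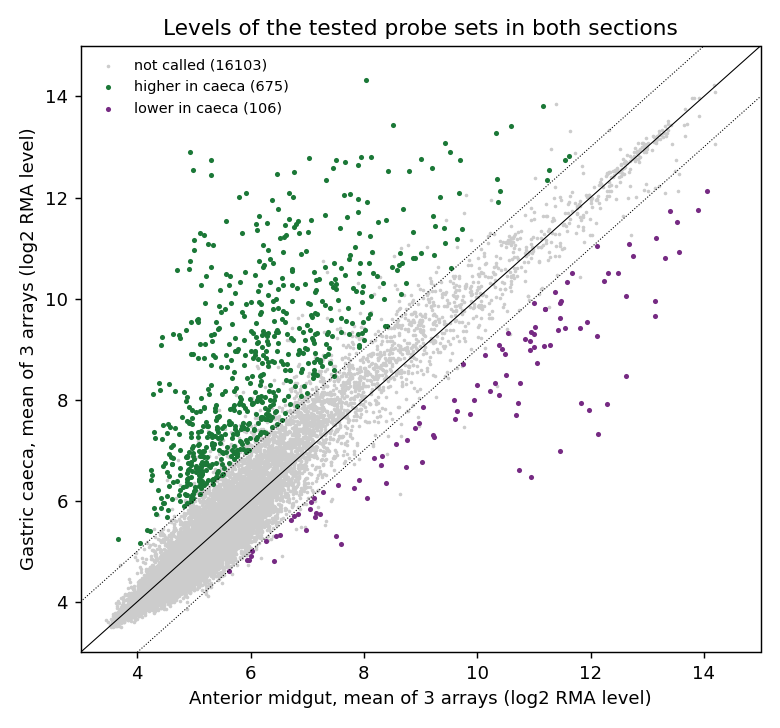
Mean log2 RMA level in gastric caeca (y axis) against anterior midgut (x axis), 3 arrays each, 1 point per tested probe set; the solid line marks equal levels and the dotted lines 2-fold. The 675 higher probe sets spread far from the line, up to 252-fold, whereas the 106 lower ones reach 28.1-fold.

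In 671 of the 675 higher probe sets all 3 caeca arrays lay above all 3 anterior midgut arrays, an arrangement found in 12.3% of all tested probe sets. All 106 lower probe sets had the reverse arrangement, found in 14.3% of those tested. These calls were chosen on the same arrays, so nothing further is read from the counts. For comparison, probe sets taken by their ID prefix as those of a malaria parasite were put through the same fit with every row. Of these, 2 of 4506 were called (0.0444%), against 724 of the mosquito probe sets in that fit. Most parasite probe sets lay near the floor, under a level of 3.98 to 4.18 on the caeca and anterior midgut arrays. Medians of all tested mosquito probe sets on these arrays were 5.07 to 5.19. Only 9 parasite probe sets differed by 2-fold or more, as a call requires. The low rate of parasite calls therefore cannot show how many mosquito calls at measurable levels are false. None of 290 IDs that start with a number and none of 144 control IDs were called in limma. Of the IDs starting with a sequence accession, 2 of 937 were called (0.213%).

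The 2 largest differences were those of probe sets abundant in caeca and low in the 3 other sections. Ag.3L.2015.0_CDS_at stood at 13.06, 12.94 and 12.72 on the log2 scale in caeca arrays 1, 2 and 3, and at 4.81, 5.13 and 4.85 in the anterior midgut arrays. No array of one section came near the other, and the difference of 7.98 ± 0.15 (limma standard error) equals 252-fold (adjusted p = 5.8e-12). Ag.3L.687.0_CDS_at was at 12.59, 12.45 and 12.61 in caeca and at 4.99, 5.44 and 4.51 in anterior midgut. Here too the groups lay far apart, by 7.57 ± 0.32 or 190-fold (adjusted p = 8.7e-09). Both anterior midgut means lay below the background of that section, the 95th percentile of the number IDs (5.83), so these folds are not exact. In the remaining sections Ag.3L.2015.0_CDS_at had means of 5.36 in posterior midgut and 4.60 in hindgut, and Ag.3L.687.0_CDS_at 4.58 and 3.85. Whole larvae held both, at 10.86 ± 0.03 and 10.61 ± 0.40 (SD, n = 3).

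Among lower probe sets the 2 largest differences belonged to RNAs that were abundant along the rest of the gut. Ag.2R.3529.0_CDS_at stood at 6.70, 6.97 and 8.28 in caeca and at 12.31, 11.70 and 12.38 in anterior midgut. The groups did not overlap, caeca array 3 being the highest of its section, and the difference was -4.81 ± 0.49, or 28.1-fold (adjusted p = 2.9e-05). Posterior midgut and hindgut means of this probe set were 13.42 and 11.96, so caeca was the low section. Ag.2L.2197.0_CDS_at was at 6.33, 6.33 and 6.75 in caeca against 10.97, 10.77 and 11.11 in anterior midgut. This difference of -4.48 ± 0.36 was 22.3-fold (adjusted p = 3.4e-06), and the means of 12.52 in posterior midgut and 11.00 in hindgut were again near or above that of anterior midgut.

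RMA draws low signals together and so shrinks the folds of dim probe sets. The comparison was therefore also read over the 1962 probe sets above the background of the number IDs on each of the 6 arrays, where 238 were called (12.1%). Of these 149 were higher in caeca (7.59%) and 89 lower (4.54%), a share of 62.6% higher in place of 86.4%. The exact 95% binomial interval of 56.1 to 68.8% covers counting error only and treats probe sets of the same arrays as independent. The background to be passed was 5.83, 6.56 and 5.44 on anterior midgut arrays 1, 2 and 3, against 5.36 to 5.39 in caeca. Demanding such a level in anterior midgut itself removes higher calls, so nothing is read from the fall in share. Of the 106 lower calls 89 are thus in this set, but of the 675 higher calls only 149. An anterior midgut mean under the background of that section was found in 313 of the higher probe sets (46.4%, against 72.3% of all tested). After quantile normalization the same set, chosen on the deposited values, gave 100 higher and 225 lower. The prevailing direction in this set thus differed between the scalings, but its choice removes higher calls, so neither direction is read as that of the sections. Without anterior midgut array 3 the set gave 289 higher and 151 lower. With the parasite IDs as background, 653 higher and 106 lower calls were above it on all 6 arrays.

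Among probe sets above background on all 6 arrays, the largest difference was that of Ag.2L.1725.0_CDS_at, which also had the highest single value of any called probe set, with 14.44, 14.32 and 14.24 in caeca against 7.54, 9.91 and 6.67 in anterior midgut. Array 2 of anterior midgut was the highest of its section by 2.37, yet remained far below caeca. The difference was 6.29 ± 0.63 or 78.4-fold (adjusted p = 2.6e-05 in limma, with the spread pooled over all groups). The SD of this probe set was 1.67 in anterior midgut, against 0.10 in caeca. Its adjusted p was 0.0084 in a limma fit of the 6 arrays alone. In the methods' t-test after Benjamini-Hochberg adjustment it was 0.11, which did not pass. Without array 2 of anterior midgut the difference was 150-fold, and without array 3 it was 48.9-fold. Ag.X.1101.0_CDS_at was at 12.72, 12.76 and 12.86 in caeca and at 6.46, 8.38 and 6.23 in anterior midgut. Again only array 2 stood out in anterior midgut, and the 54-fold difference (adjusted p = 1.4e-06) became 86.5-fold without it. Hindgut held this RNA at an intermediate mean of 8.97, against 6.06 for Ag.2L.1725.0_CDS_at.

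In the opposite direction, Ag.3L.1076.0_CDS_at stood at 5.97, 7.57 and 7.40 in caeca and at 11.55, 10.81 and 12.03 in anterior midgut, 22.3-fold lower in caeca (adjusted p = 2.3e-05). Ag.2L.2465.0_CDS_at was at 7.09, 8.01 and 8.61 against 12.15, 11.91 and 12.85, 21.1-fold lower (adjusted p = 9.7e-05). In both, caeca array 1 was the lowest array of the 2 sections and anterior midgut array 2 the lowest of its own, without overlap between the groups. Both RNAs were about as abundant in posterior midgut, with means of 11.71 and 12.65. Hindgut held less of both, at means of 5.53 and 8.44, than of the pair of largest falls, at 11.96 and 11.00.

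**Figure D2:**
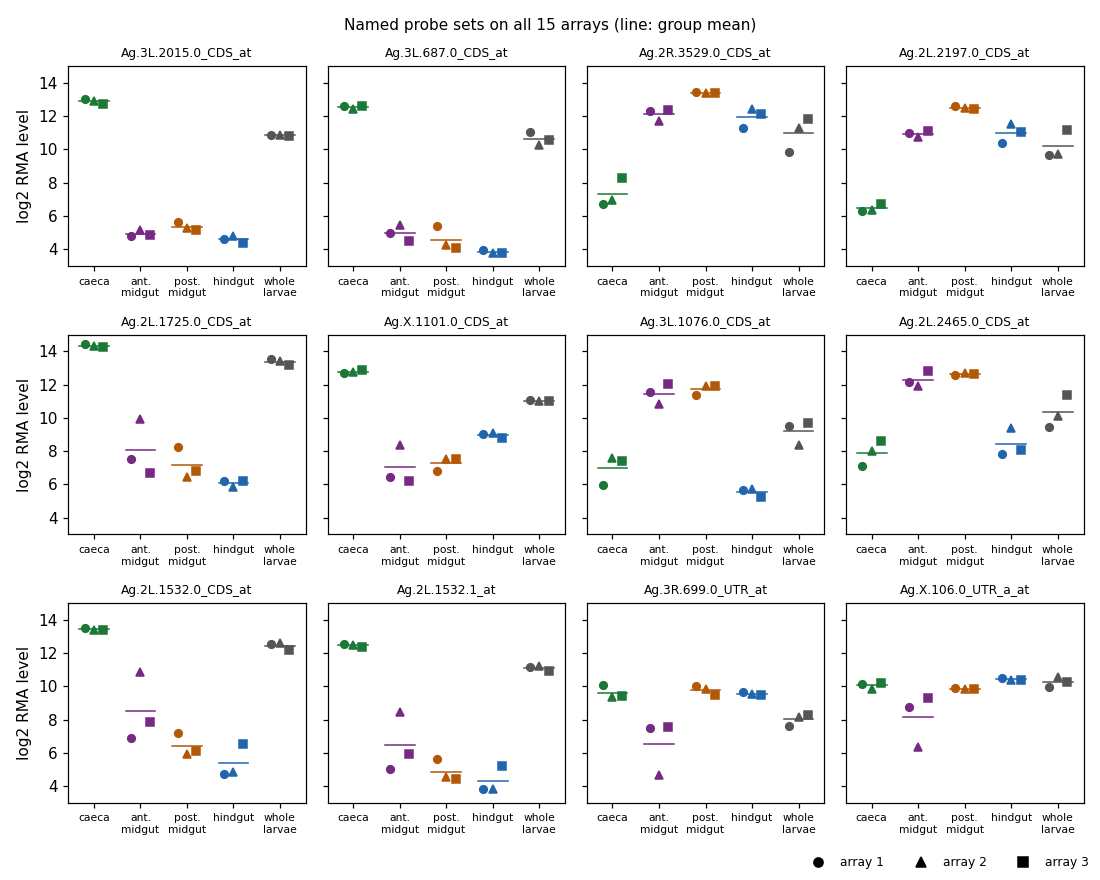
Log2 RMA level (y axis) of 12 probe sets on all 15 arrays, by group (x axis), with symbols for arrays 1, 2 and 3 and a line at each group mean. The top row holds the 2 largest rises and the 2 largest falls. The middle row holds the same among probe sets above background on all 6 arrays, without repeats. The bottom row holds the called probe sets in which anterior midgut array 2 stands farthest from arrays 1 and 3. An example is Ag.2L.1532.0_CDS_at, at 10.85 against 6.87 and 7.83.

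The 3 anterior midgut arrays did not measure the same difference from caeca. Against the mean of the caeca arrays, array 1 was lower by 2-fold or more at 1029 probe sets and higher at 269. For array 2 these counts were 2551 and 1100, and for array 3 they were 684 and 253. In each array on its own, more probe sets were 2-fold higher in caeca than lower, with 69.9 to 79.3% of such differences in that direction in the deposited values. After quantile normalization this direction was lost for array 2, with 1969 probe sets higher and 2008 lower in caeca (49.5% higher), and the share was 57.0% for array 1 and 62.9% for array 3. The caeca arrays taken singly against the anterior midgut mean gave 959 to 1364 probe sets higher in caeca and 143 to 252 lower. The root mean square log2 difference from caeca was 0.744 for array 1, 1.01 for array 2 and 0.647 for array 3 (SD 0.189). For the means of both sections, corrected for the spread of the arrays, it was 0.652.

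Array 2 of anterior midgut had a compressed range of values. The SD over tested probe sets was 1.40 in array 2, against 1.59 and 1.70 in arrays 1 and 3 and 1.71 to 1.78 in caeca. Levels of 10 or more were reached by 387 probe sets in array 2, by 538 and 611 in arrays 1 and 3, and by 637 to 666 in caeca. All 3 caeca arrays exceeded all 3 anterior midgut arrays in both measures (exact permutation p = 0.1 for each, two-sided, n = 3 per section, the smallest p this design allows). The share of tested probe sets above the number ID background was 27.0%, 12.7% and 38.6% in arrays 1, 2 and 3 and 40.5 to 41.1% in caeca, while that background itself stood at 5.83, 6.56 and 5.44 against 5.36 to 5.39. Added spike RNAs had median levels of 8.01, 6.94 and 9.89 in anterior midgut and of 8.33, 7.95 and 9.46 in caeca, and in each of the 5 groups array 2 was the lowest. The 3' minus 5' level of actin and Gapdh controls did not separate the sections, at 1.07, 0.69 and 0.93 in anterior midgut and 1.06, 0.63 and 0.79 in caeca (exact permutation p = 0.7, n = 3 per section). The part of these array differences in the calls was not tested beyond the fits without each array.

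To keep the bins independent of both sections, a choice made after seeing the data, probe sets were sorted by their mean level in posterior midgut, and the median difference was read for each anterior midgut array. For array 2 the median of caeca minus array was -0.22 at levels under 5, 1.35 at 7 to 8, 1.55 at 8 to 9, 1.52 at 9 to 10, and 0.17 at 12 or more. In array 1 it rose no higher than 0.39, at levels of 7 to 8. For array 3 it stayed between -0.23 and 0.04 in every bin. Against array 3, then, the typical probe set of any level was about equal in caeca and anterior midgut, whereas against array 2 the typical probe set of middle level was more than 2-fold higher in caeca. After quantile normalization the medians for array 2 ran from -0.10 to 0.73, and those for arrays 1 and 3 from -0.24 to 0.00.

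**Figure D3:**
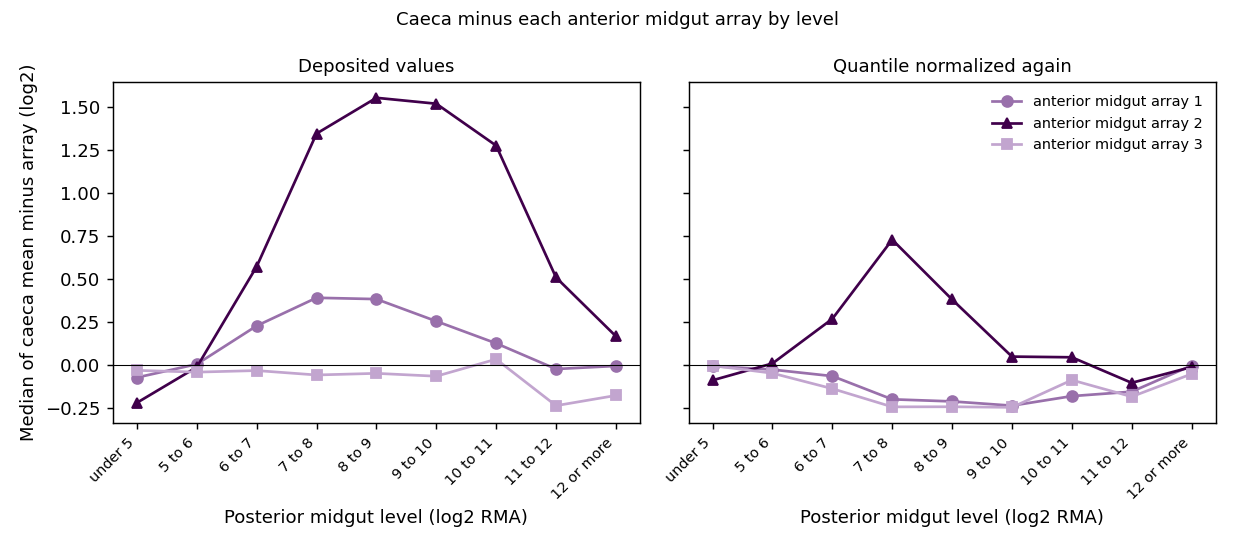
Median log2 difference of the caeca mean minus each anterior midgut array (y axis) over probe sets in bins of their posterior midgut level (x axis), for the deposited values and after quantile normalization. Array 2 leaves 0 at middle levels, up to 1.55 in the deposited values and 0.73 after normalization, while array 3 stays between -0.23 and 0.04 in the deposited values.

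The count of calls moved most when array 3 of anterior midgut was left out. Without array 2 of that section the counts were 540 higher and 135 lower, of which 528 and 90 were also called with all arrays. Without array 1 they were 576 and 82. Without array 3, which correlated best with caeca (r = 0.919 to 0.932 across probe sets, against 0.810 to 0.905 for the others), the counts rose to 1361 and 414, and 669 and 103 of the original calls were among them. Leaving out a caeca array gave 501 to 639 higher and 71 to 93 lower probe sets. Array 3 as the only anterior midgut array gave 355 higher and 108 lower calls, array 1 alone 587 and 179, and array 2 alone 2241 and 1044. These last fits assume that the lone array varies like the other groups. No probe set called in one direction with all arrays was called in the other in any of these fits. This was fixed in advance for the 671 higher and 106 lower calls without overlap between the groups. Leaving out arrays cannot reverse such a difference.

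A fit of the 6 arrays alone, which takes the spread from the 2 sections, gave 490 higher and 68 lower probe sets. The spread differed between the sections, with a root mean square SD of 0.242 in caeca and 0.470 in anterior midgut. Called in the same direction in all 10 of the following fits were 399 higher and 52 lower probe sets: the reported fit, the fit of the 6 arrays, median centring, quantile normalization, and each of the 6 arrays left out. The median difference of these probe sets was 7.08-fold for the higher and 4.07-fold for the lower, against 4.38- and 3.25-fold among all calls. Passing every one of these overlapping fits favours large differences by design, so nothing is read from these medians. Of the 52 lower ones 50 were above background on all 6 arrays, and of the 399 higher ones 84 were. All of the 8 probe sets with the largest differences named above passed in the fit of the 6 arrays and without any single array of the 2 sections. After Benjamini-Hochberg adjustment of the methods' t-test, 3 of these 8 passed, which were both of the largest rises and, among the lower ones, Ag.2L.2197.0_CDS_at.

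**Figure D4:**
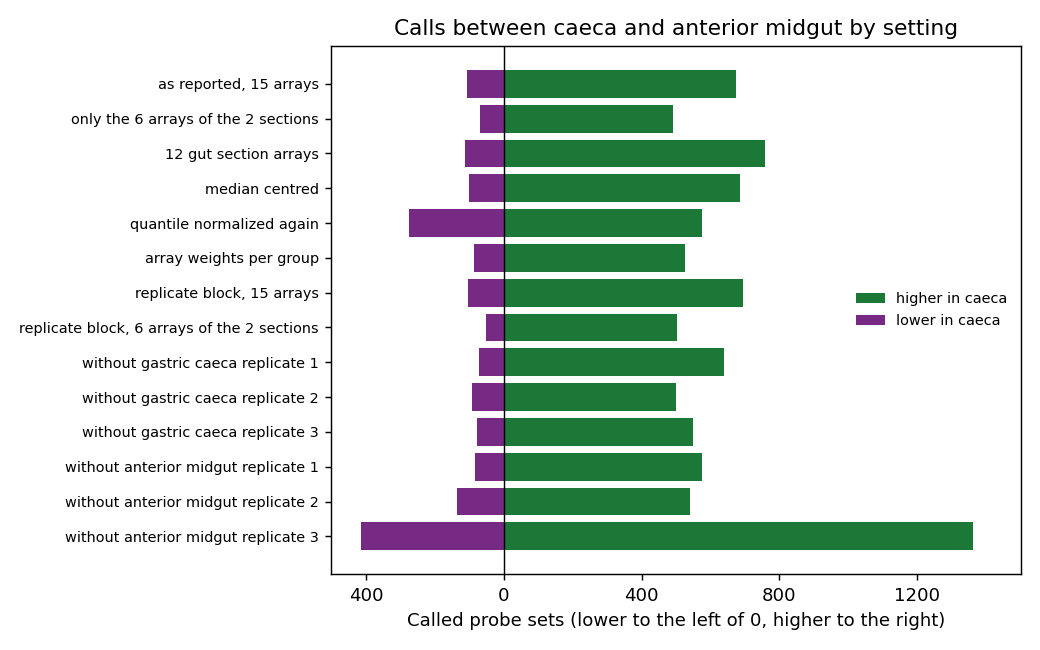
Number of probe sets called higher (right of 0) or lower (left of 0) in caeca than in anterior midgut, for the reported fit and for 13 alternatives (y axis). Higher probe sets outnumber lower ones in each, from 575 against 274 after quantile normalization to 502 against 51 with the 6 arrays and a replicate block, and both counts are greatest without anterior midgut array 3, at 1361 and 414.

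Within anterior midgut, array 2 was most often the lowest array of the called probe sets. Of the 675 higher probe sets it was the lowest anterior midgut array in 420 (62.2%, against 38.3% of all tested probe sets) and by 2-fold or more below both others in 89. Array 3 was the highest of the section in 428 (63.4%, against 39.6% of all tested). Among the 40 higher probe sets with a caeca level of 12 or more, array 2 was the lowest anterior midgut array in 18, in 3 of them by at least 2-fold, and the highest in 15, in 5 of them by at least 2-fold. It was the highest of its section in 41.6% of all tested probe sets. The widest gaps above the others were those of a pair of probe sets that share the first part of their ID. Ag.2L.1532.0_CDS_at was at 6.87, 10.85 and 7.83 in anterior midgut, and Ag.2L.1532.1_at at 5.01, 8.46 and 5.91. Their caeca levels were 13.53, 13.38 and 13.40 for the first and 12.55, 12.47 and 12.37 for the second, so neither overlapped.

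Differences in these 2 probe sets therefore depended on single arrays. For Ag.2L.1532.0_CDS_at the difference was 30.3-fold (adjusted p = 0.0014), and it became 68-fold with array 2 of anterior midgut left out and 17.1-fold with array 1 left out. It missed the threshold in the fit of the 6 arrays (adjusted p = 0.0501). For Ag.2L.1532.1_at it was 64.1-fold (adjusted p = 6.8e-05), and 128-fold and 38.7-fold with the same arrays left out. Array 1 of anterior midgut was under the background of the section here (5.01 against 5.83), so these folds are not exact. In the other direction, Ag.3R.699.0_UTR_at was at 7.47, 4.65 and 7.54 in anterior midgut and at 10.06, 9.36 and 9.39 in caeca. Its difference of 8.27-fold (adjusted p = 0.005) fell to 4.27-fold without array 2 and did not pass in the fit of the 6 arrays (adjusted p = 0.12). Ag.X.106.0_UTR_a_at stood at 8.77, 6.35 and 9.27 against 10.12, 9.85 and 10.17 in caeca, 3.78-fold higher (adjusted p = 0.048) and 2.04-fold without array 2. It did not pass in the fit of the 6 arrays (adjusted p = 0.27), after quantile normalization (adjusted p = 0.075) or without any 1 of the 12 arrays outside anterior midgut (adjusted p = 0.053 to 0.14).

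The caeca arrays differed less. Array 1 of caeca was the lowest of its section in 75 of the 106 lower probe sets (70.8%, against 36.5% of all tested) and array 2 the highest in 68 (64.2%, against 32.9%). Median levels of the 106 were 7.88, 8.45 and 8.27 in caeca arrays 1, 2 and 3 and 10.64, 9.96 and 10.77 in anterior midgut. Those of the 675 higher probe sets were 8.38, 8.64 and 8.44 in caeca and 5.97, 5.59 and 6.22 in anterior midgut, against 5.07 to 5.19 for all tested probe sets on these arrays. In both directions caeca array 1 was most often the lowest and array 2 most often the highest of its section, and array 2 was most often the lowest of anterior midgut.

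Levels of the called probe sets elsewhere in the gut were read from the other 9 arrays. Over the 675 higher probe sets the median level of 8.48 in caeca and 5.94 in anterior midgut compared with 7.27 in posterior midgut, 7.95 in hindgut and 7.42 in whole larvae. Over the 106 lower ones the medians were 8.05, 10.50, 8.68, 7.01 and 7.72 in the same order, and over all tested probe sets 5.02 to 5.15. Anterior midgut was the lowest of the 4 sections for 517 of the higher probe sets (76.6%, against 27.3% of all tested), and caeca the highest for 392 (58.1%, against 13.6%), figures that the choice of the calls itself favours. Hindgut was the highest section for 213 of the higher probe sets (31.6%), near its share of all tested (29.9%). For the lower probe sets, anterior midgut was the highest section in 81 of 106 (76.4%, against 38.5% of all tested) and hindgut the lowest in 74 (69.8%, against 44.1%).

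Sorted by whether posterior midgut and hindgut lay nearer to caeca or to anterior midgut, the higher probe sets fell into 4 patterns. In 292 of the 675 (43.3%, against 48.6% of all tested probe sets) both lay nearer to caeca, and the median level of 6.09 in anterior midgut stood against 8.43 in caeca, 8.15 in posterior midgut and 8.71 in hindgut. By these medians anterior midgut alone was low, but the pattern was no commoner among the calls than among all tested probe sets. In 149 (22.1%, against 12.7% of all tested) both lay nearer to anterior midgut, with 9.19 in caeca and 5.57, 5.57 and 5.44 in the 3 other sections, so that caeca alone was high, and the 2 largest rises belong here. Posterior midgut alone joined caeca in 95 (14.1%, against 15.8% of all tested), with medians of 9.56 in caeca and 9.03 in posterior midgut, and hindgut alone in 139 (20.6%, against 22.9%), with 7.64 in caeca and 8.36 in hindgut. Median differences were 3.98-fold, 5.96-fold, 6.31-fold and 3.35-fold in the order given. Without anterior midgut array 2, 76.4%, 79.2%, 94.7% and 69.8% of these calls were made again. The patterns were not tested against each other.

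For the lower probe sets the commonest pattern was a peak in anterior midgut. In 67 of 106 (63.2%, against 48.6% of all tested) posterior midgut and hindgut both lay nearer to caeca, and the median level of 9.74 in anterior midgut stood against 7.94 in caeca, 7.31 in posterior midgut and 6.10 in hindgut. Posterior midgut went with anterior midgut and hindgut with caeca in 22 (20.8%, against 22.9% of all tested), among them Ag.3L.1076.0_CDS_at and Ag.2L.2465.0_CDS_at, at 9.12 in caeca, 11.20 and 11.04 in both midgut sections and 7.63 in hindgut. In 14 (13.2%, against 12.7% of all tested), the 2 largest falls included, both other sections went with anterior midgut, and caeca was the only low section at 8.13, against 11.89, 13.20 and 11.67. These 14 had the highest median level of any pattern in posterior midgut. The median level of all 106 in posterior midgut was 8.68, but 10.59 for the 68 lower calls of the fit of the 6 arrays and 7.68 for the 274 after quantile normalization, so the makeup of the lower group depended on the processing.

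**Figure D5:**
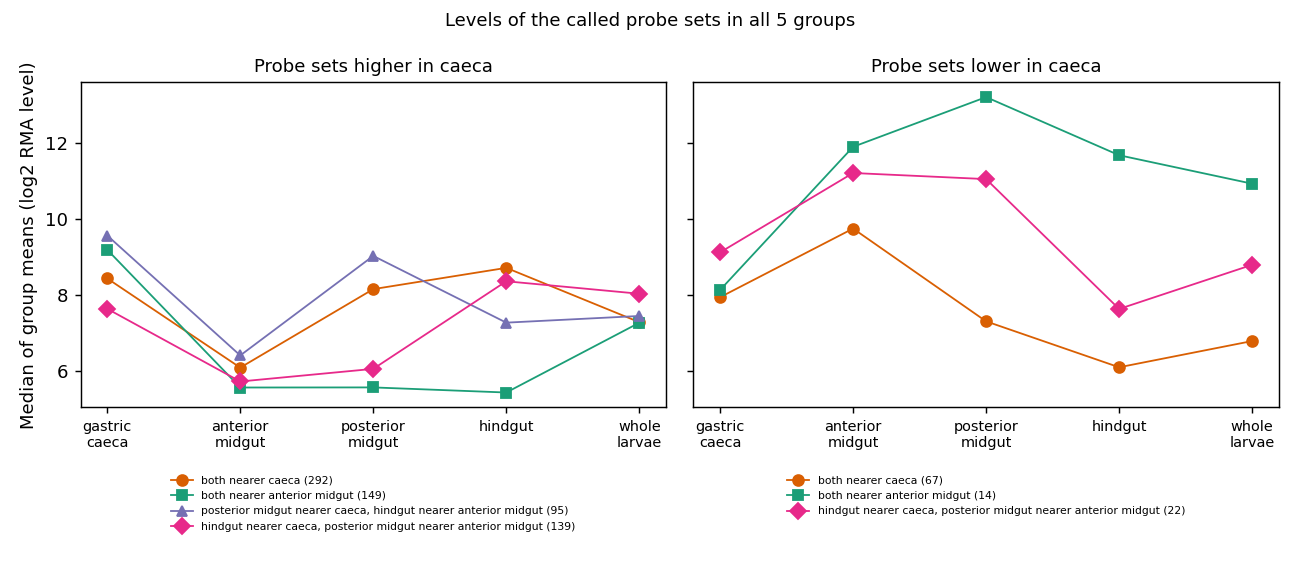
Median over probe sets of the group means (y axis, log2 RMA level) in the 5 groups (x axis), for probe sets higher (left) or lower (right) in caeca, by whether posterior midgut and hindgut lay nearer to caeca or to anterior midgut, with the number of probe sets in brackets and patterns of under 10 left out. The 149 higher probe sets of caeca alone drop from 9.19 to 5.57, 5.57 and 5.44 in the other sections, and the 67 lower ones that peak in anterior midgut stand at 9.74 there.

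Several probe sets can share the first part of an ID, up to the number after the arm field. There were 14906 such stems among the tested probe sets, of which 1657 had more than 1 probe set. Of the 241 higher calls with a partner, 157 (65.1%) had a partner called higher as well, and the mean difference of the partners had the same sign in 228. For the 30 lower calls with a partner these counts were 15 (50%) and 26. Of all probe sets with a partner, 7.46% were called. The sources used here do not define the ID fields, and partners may read the same transcript, so this is a description of agreement on the same arrays.

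One stem was called in both directions, and it is named here because its values were seen. Ag.3L.444.0_CDS_at stood at 8.32, 9.54 and 9.32 in caeca and at 11.61, 10.92 and 11.00 in anterior midgut, 4.34-fold lower in caeca (adjusted p = 0.00096). Ag.3L.444.1_CDS_at stood at 9.57, 9.22 and 9.19 in caeca against 7.19, 6.71 and 6.86, 5.31-fold higher (adjusted p = 4.4e-05). Neither pair of groups overlapped. They also differed along the rest of the gut, the first with means of 5.21 in posterior midgut and 4.30 in hindgut, the second with 8.52 and 9.22.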

How the data were processed

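The authors deposited log2 values, which were produced by RMA according to the labels and the submitters' processing notes; this method subtracts background, equalises arrays and combines the probes of each set. Version and settings of RMA were not given in the sources used here. Values of the 22761 rows run from 3.13 to 14.4. Per the labels' protocols, 5 µg of total RNA was labelled per array. The number of arrays limits the precision, and an array has no counting depth.

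The 16884 probe sets whose ID starts with Ag. were fitted in limma 3.58.1 (R 4.3.3; lmFit, eBayes) with a mean per group over all 15 arrays (10 residual and 2.76 prior degrees of freedom), and p-values were Benjamini-Hochberg adjusted over all of them. Calls needed an adjusted p under 0.05 and 2-fold. Whole larvae and anterior midgut have the widest spread, so fits of fewer arrays were tried. Measures of arrays were compared by two-sided exact permutation. Python 3.11.15 was used for descriptions.

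Named probe sets are the 2 with the largest rise and the 2 with the largest fall whose groups do not overlap, the same over probe sets above background on all 6 arrays without repeats, and the 2 and 2 calls with anterior midgut array 2 farthest above or below arrays 1 and 3. The tables used here matched 0 of the IDs to genes, so gene lists were not used. The arrays compared, lists and tests were chosen with earlier results of these data known.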

Additional observations from a re-analysis of the deposited data

Results flagged for a closer look

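Probe sets taken by their ID prefix as those of a malaria parasite were not part of the comparison, and 2 of them were called in the fit of every row and lay higher in all caeca arrays than in any whole-larva array. They are named because their values were seen. Pf.5.314.0_CDS_at stood at 6.01, 5.73 and 5.48 in caeca and at 4.40, 4.82 and 4.13 in anterior midgut, a difference of 1.29 ± 0.18 (adjusted p = 0.00097), with 3.89 to 4.24 in whole larvae. Pf.7.226.0_CDS_s_at stood at 5.17, 4.96 and 5.45 in caeca and at 3.65, 3.66 and 3.98 in anterior midgut, a difference of 1.43 ± 0.13 (adjusted p = 3.2e-05), with 3.77 to 4.01 in whole larvae. The cause was not tested.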

How the results depend on the processing

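In every setting tried, more probe sets were called higher in caeca than lower, except among probe sets above background on all 6 arrays after quantile normalization (100 higher, 225 lower). None of the 12 named differences changed sign, but in all 12 the groups do not overlap, so leaving out arrays could not reverse them. The lower count was 68 with only the 6 arrays, 274 after quantile normalization (67.7% higher), 63 at an adjusted p under 0.01 and 282 with no fold minimum. At least 4-fold were 407 probe sets (370 higher, 37 lower). The methods' t-test gave 744 higher and 112 lower at its unadjusted threshold, and 156 (150 higher, 6 lower) after Benjamini-Hochberg adjustment, when 9 of the 12 named probe sets no longer passed. Weights per array gave 1329 calls (1058 higher, 271 lower, 79.6% higher; above background 392, with 175 lower), but that estimate did not converge and put a weight of 84.2 on anterior midgut array 1; estimated gene by gene, chosen after seeing the data, they gave 1225, with 228 lower. With the parasite IDs as background, 759 calls were above it (653 higher). Leaving out each of the 15 arrays gave 594 to 1775 calls (501 to 1361 higher, 71 to 414 lower); over the 6 arrays of both sections, 191 to 440 calls above background (115 to 289 higher, 62 to 151 lower), 76.7 to 90% higher, and a root mean square difference of 0.588 to 0.755.

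Correlations of deviations between same-numbered arrays were 0.267, 0.0997 and 0.316, and each caeca array correlated best with its own number, a hint from the data and not the design. A replicate block gave 695 higher and 105 lower probe sets in the 15-array fit (800 calls), and 502 and 51 in the fit of the 6 arrays (553 calls). Added after seeing the data, single anterior midgut arrays gave 766 calls (179 lower) for array 1, 3285 (2241 higher, 1044 lower) for array 2 and 463 (355 higher) for array 3. After quantile normalization caeca were 2-fold higher than array 1 at 830 probe sets and lower at 627, but higher than array 2 at 1969 and lower at 2008. Median levels of higher calls then became 6.89 in posterior midgut and 7.62 in hindgut, and of lower calls 7.68 in posterior midgut and 7.0 in whole larvae; with only the 6 arrays, higher calls had 7.78 in hindgut and lower calls 10.59 in posterior midgut, 8.49 in hindgut and 9.0 in whole larvae. The cause of these shifts was not tested. Folds of the 313 higher probe sets whose anterior midgut mean is under the number ID background are not exact by that cutoff. By the parasite ID background, 653 higher calls were above it on all 6 arrays.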

Other observations

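By the arm field of the ID, 5.89% of the probe sets marked 3L were called, 5.11% of 2R, 4.91% of 3R, 4.84% of 2L, 4.06% of X and 1.44% of those marked UNKN. By the part field, 7.97% of 790 probe sets with UTR in the ID were called, against 4.47% of 14060 with CDS and 4.42% of 2034 with neither. Among 671 stems that carry both a CDS and a UTR probe set, the CDS probe set was higher in caeca in 45 and lower in 8, and the UTR probe set in 50 and 5. In 32 both were higher, and no pair was called in opposite directions in limma. Of all tested probe sets 4.00% were called higher and 0.628% lower, and of those with a partner of the same stem 7.46% were called. These shares are descriptions, and the ID fields are not defined in the sources used here.

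Outside the mosquito and parasite IDs, 2 of 937 IDs that start with a sequence accession were called in the fit of every row, 1 in each direction, and both were seen before they were counted. The higher one stood at 5.84, 6.69 and 6.36 in caeca against 4.92, 5.00 and 5.11 in anterior midgut, and the lower one at 7.01, 6.85 and 6.96 against 8.27, 8.34 and 7.38.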
